A study of Mus musculus with 8 samples.

Results

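The extracellular matrix and integrin genes described here are the genes of mouse gastrocnemius, a calf muscle, whose name in the deposited peak lists begins as that of a collagen, laminin, fibrillin, fibulin, latent TGF-beta binding protein (Ltbp), thrombospondin, Adamts or Adamts-like protein, or integrin alpha or beta chain, and that carried an m6A peak in at least 1 list. They were 39 of the 5987 gene names in the lists, and they held 227 peaks. The lists came from m6A MeRIP-seq, in which RNA fragments are captured with an antibody against N6-methyladenosine (the IP library) and compared with the uncaptured input RNA. Both groups were muscles of 10-week-old male C57BL/6 mice. Denervated muscle had been without its nerve for 14 days, and innervated muscle, labelled untreated, was the gastrocnemius of the opposite leg. There were 2 IP libraries per group, called innervated 1 and 2 and denervated 1 and 2, each with its own input library and 1 peak list of 9327 to 10300 peaks. The labels do not say which muscles came from the same animal, so spreads and p-values measure only the differences between these libraries, which may be technical.

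The matrix around muscle fibres is built in layers. Fibrillar collagens such as types I and V carry load in the connective tissue, collagen VI links that tissue to the basement membrane, and laminins form the sheet that touches the fibre. Fibrillins, fibulins and Ltbp proteins make microfibrils and elastic fibres and hold growth factors of the TGF-beta family in store. Integrins are receptors made of an alpha and a beta chain that bind these proteins at the cell surface, and Adamts enzymes cut them. m6A is a methyl mark on adenosines of messenger RNA that is laid down mostly in long internal exons and around the stop codon, in the sequence context GGAC and its relatives, and that influences the decay and translation of the transcript.

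Of the 123 genes in the RefSeq annotation whose symbol matches these families, 39 (31.7%) carried a peak, against 26.4% of the other protein-coding genes. All 227 peaks lay inside the annotated span of the gene they were named for. A peak marks methylated RNA that was abundant enough to be detected. Read counts were not analysed here, so depth is unknown, a missing peak does not show an unmethylated transcript, and, in RNA of whole muscle, fewer cells of a type and less RNA per cell cannot be told apart. The number of matrix and integrin genes with a peak was 28 in innervated 1, 23 in innervated 2, 33 in denervated 1 and 28 in denervated 2. The group ranges met at 28. Innervated libraries averaged 25.5 ± 3.54 (SD, n = 2) and denervated libraries 30.5 ± 3.54 (SD, n = 2). The difference of 5 genes was not larger than the spread between libraries (two-sided exact permutation p = 0.667, where 0.333 is the smallest p that 2 against 2 libraries can give). Peaks in these genes numbered 59, 46, 66 and 56 in the same order, a difference in means of 8.5 (exact permutation p = 0.667). Innervated 2 was the longest list of all and yet held the fewest of these genes, 0.495% of its called genes, where the other lists held 0.661% to 0.716%.

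**Figure D1:**
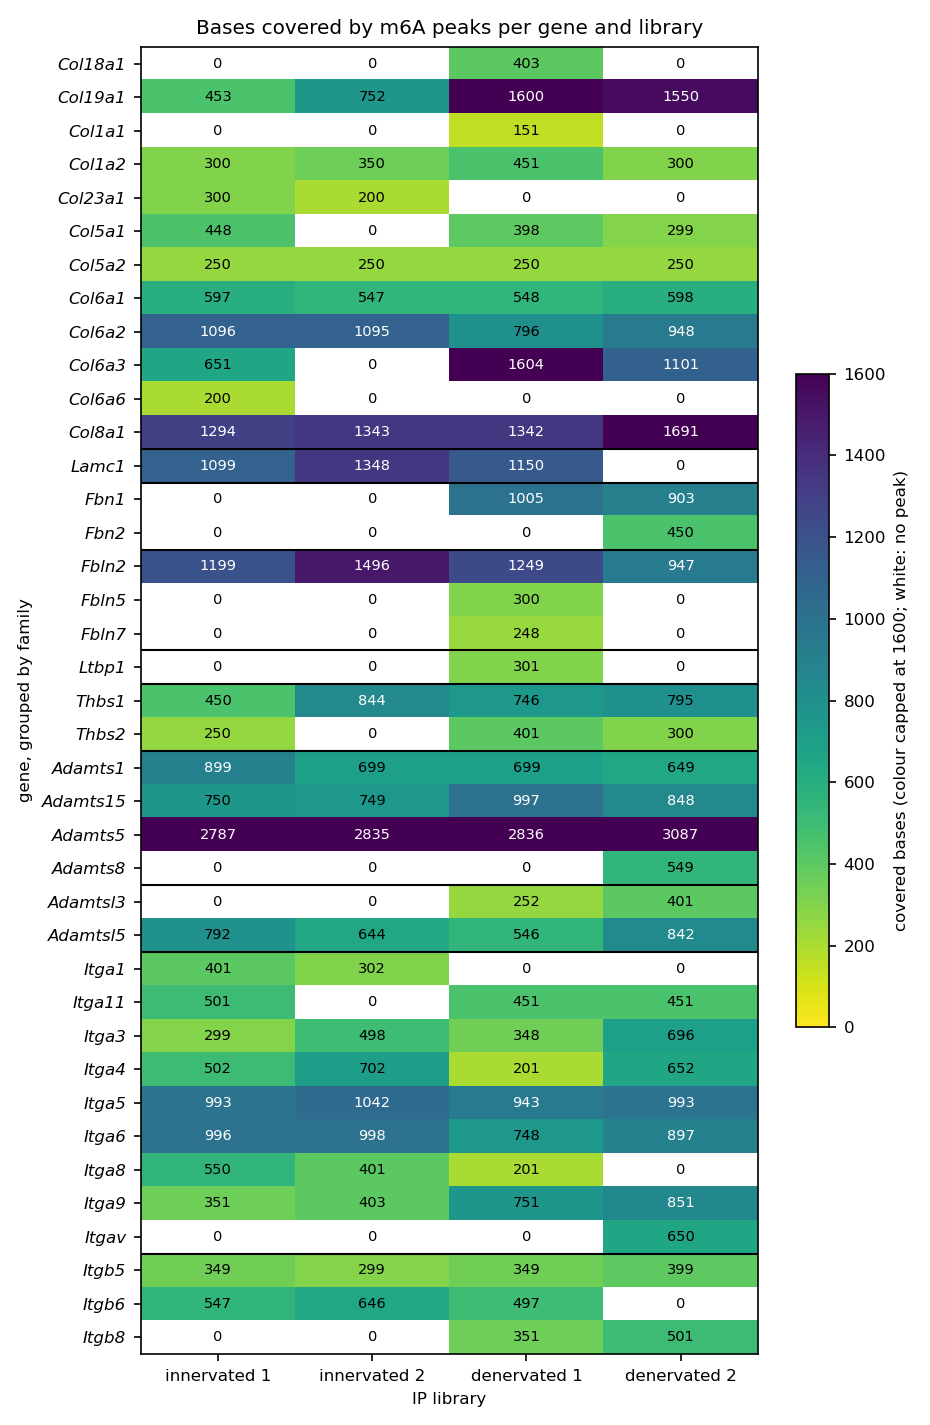
Bases covered by m6A peaks in each of the 39 matrix and integrin genes (rows, grouped by family) in each IP library (columns); colour and numbers give covered bases, and white cells mean no peak. Adamts5 has the highest values in every library, 2787 to 3087 bases, and Fbn1, Itgb8 and Adamtsl3 have peaks in the denervated libraries alone.

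Of the 39 genes, 18 were called in all 4 libraries (46.2%, against 48.9% of the other called genes), 7 in 3 libraries, 5 in 2 and 9 in 1. The share of genes seen in every library was therefore close to that of the rest of the lists. The 7 genes seen in 3 libraries lacked a peak in innervated 2 (Col5a1, Col6a3, Itga11 and Thbs2) or in denervated 2 (Itga8, Itgb6 and Lamc1). Among other genes seen in 3 libraries, 14.6% lacked a peak in innervated 2 and 32.8% in denervated 2. Of the 9 genes seen in 1 library, Col1a1, Col18a1, Fbln5, Fbln7 and Ltbp1 had their peak in denervated 1, Adamts8, Fbn2 and Itgav in denervated 2, and Col6a6 in innervated 1. Among other genes seen in 1 library, 31.4% were seen in denervated 1, 21.8% in denervated 2, 15.9% in innervated 1 and 31.0% in innervated 2.

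A gene counted as denervated only if it had a peak in denervated 1 and 2 but in no innervated library, and as innervated only if the reverse held. Denervated only were 3 genes, Fbn1, Itgb8 and Adamtsl3 (7.69%, against 3.40% of the other called genes), and innervated only were 2, Itga1 and Col23a1 (5.13%, against 3.13%). With counts this small, each share rests on a few genes, and no test was made of them. With 1 library fewer the condition is easier to meet: there were 7 denervated-only genes when innervated 1 was dropped, 3 when innervated 2 was, 6 when denervated 1 was and 8 when denervated 2 was, and innervated-only genes 2, 3, 5 and 2. The 5 genes named above are among them by construction. The shares of other genes were not counted with a library dropped, so these counts cannot be set against a background. The score of a peak, the authors' own value, orders the peaks of a list, and small scores are taken here as strong peaks. In the stronger 50% of each list by score, Fbn1 kept its call and the other genes did not. In the weaker 50%, Adamtsl3, Itgb8 and Itga1 kept theirs, and Fbn1 and Col23a1 did not.

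Fbn1 encodes fibrillin-1, the main protein of the microfibrils on which elastic fibres are built. It had 0 peaks in both innervated libraries, 5 peaks in denervated 1 and 3 in denervated 2, which covered 1005 and 903 bases. The denervated libraries thus stood close together and both innervated libraries had none. The peaks formed 3 regions, all of them denervated only. Of these, 2 lay at the 3′ end of the gene on the minus strand, chr2:125300844-125301144 and chr2:125301244-125303104 (mm10). The third, chr2:125505639-125506438, lay at the 5′ end and was split into blocks. Peaks split into blocks in the lists are called spliced here, and their gaps were not checked against annotated introns. The third region began at base 1 of the annotated transcript start and ran through base 100 of the transcript in its outer block. It is shown because the start was covered in the denervated libraries alone. Bases 21 to 50 of the transcript, from RefSeq on GRCm38.p6 (the assembly of mm10, chromosome 2, window 125506389 to 125506438), are given 5′ to 3′ with the m6A context GGAC in capitals:
Fbn1: gggtgccacaggcggccacagctgGGACag
In the first 50 bases of Fbn1, GGAC occurred once on the transcript strand, starting at base 45, and GGACT did not occur on either strand. GGAC was present on the transcript strand in 18.9% of all 32851 start windows of that table and on either strand in 33.3%, and GGACT, which contains GGAC, in 5.76% and 10.4%, so its presence is a description and marks no methylated site. Fbn1 was the only one of 30 matrix and integrin genes with a start in the table that had a peak in the first 50 bases (3.33%), against 8.62% of other genes. Of the 389 other genes with such a peak, it was denervated only in 20 and innervated only in 12. In Itga1 and in Itgav, the alpha chain that pairs with several beta chains to bind fibronectin and latent TGF-beta, a peak began at base 51 of the start. For Itga1 it was seen in innervated libraries and for Itgav in denervated 2 alone.

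Of the other fibrillin, fibulin, Ltbp and Adamts-like genes with a peak, Fbln2 and Adamtsl5 were called in every library and the rest in 1 or 2. Fbn2, fibrillin-2, of developing tissue, had a single peak of 450 bases in denervated 2, chr18:58010120-58010569. Ltbp1, which binds latent TGF-beta into the matrix, had a single peak of 301 bases in denervated 1 at its 3′ end, and Ltbp2, Ltbp3 and Ltbp4 had none. Of the fibulins, which connect microfibrils to elastin and to basement membranes, Fbln2 had 1199, 1496, 1249 and 947 covered bases in innervated 1, innervated 2, denervated 1 and denervated 2. The groups overlapped. Fbln2 was the only fibulin with a peak far from the 3′ end in all 4 libraries, at chr6:91233175-91250874, near 35.5% of the span, beside a second shared region at chr6:91271645-91272192. Fbln5, needed for elastic fibre assembly, and Fbln7 each had 1 peak in denervated 1, of 300 and 248 bases, and Fbln1 had none. Adamtsl3, a secreted protein of the Adamts-like family, had 0 peaks in both innervated libraries and 2 in each denervated library, covering 252 and 401 bases. Only its region chr7:82612852-82613101 was common to both denervated libraries, and the other 2 were each seen in 1. Adamtsl5, another Adamts-like protein that binds fibrillin, had the same 2 regions in all libraries, covering 792, 644, 546 and 842 bases. Those groups overlapped.

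Collagens made up 12 of the 39 genes, from 44 annotated. Col1a2, Col5a2, Col6a1, Col6a2, Col8a1 and Col19a1 were called in all 4 libraries. Of the fibrillar collagens, Col1a2, a chain of type I collagen, had its peak in the last part of the gene in every library, with 300, 350, 451 and 300 covered bases. Col1a1, the other type I chain, had a single peak of 151 bases, in denervated 1. Col5a2, a type V chain, which regulates the diameter of collagen fibrils, had a peak with the same borders in all 4 libraries, 250 bases at chr1:45375922-45376171. Its partner Col5a1 had 448 bases in innervated 1, none in innervated 2, and 398 and 299 in the denervated libraries. Col3a1 had no peak in any list.

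All chains of the main form of collagen VI, whose loss causes muscle dystrophy in patients, carried peaks. Col6a1 covered 597, 547, 548 and 598 bases in a single region, chr10:76709339-76710034, and the groups overlapped. Col6a2 covered 1096 and 1095 bases in innervated 1 and 2 and 796 and 948 bases in denervated 1 and 2. Both denervated values were lower, at 0.796 times the innervated mean (exact permutation p = 0.333, the smallest possible). Col6a3 carried the most regions of any of the 39 genes, 8, but 0 of them in all 4 libraries. It covered 651 bases in innervated 1, none in innervated 2, 1604 in denervated 1 and 1101 in denervated 2. With the missing peak counted as 0 bases, both denervated values were higher (exact permutation p = 0.333). Its region chr1:90811532-90813264 was denervated only, and 5 of its 8 regions were seen in denervated 1 alone. The scores of most Col6a3 peaks were among the largest in their lists, with region means between percentiles 1.24 and 2.90 on a scale where 100 is the smallest score, except the region nearest the 3′ end at 33.6. Col6a6, a related chain, had 1 peak of 200 bases in innervated 1.

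Among the other collagens, Col19a1, a minor collagen of basement membrane zones, differed most between groups. Its single region, chr1:24263028-24264627 on the minus strand, was called in all 4 libraries. In innervated 1 and 2 it was broken into 3 peaks that covered 453 and 752 bases, and in denervated 1 and 2 it was 1 unbroken peak of 1600 and 1550 bases. Both denervated values were higher, at 2.61 times the innervated mean (exact permutation p = 0.333). Col8a1, a short-chain collagen of vessel walls, held 3 regions called in all 4 libraries, more than any other of the 39 genes, and covered 1294, 1343, 1342 and 1691 bases, with overlapping groups. Col23a1, a transmembrane collagen, was innervated only: it covered 300 and 200 bases in innervated 1 and 2 and had no peak in the denervated libraries. The peak common to both lay at chr11:51580298-51580497. Col18a1, the basement membrane collagen from which endostatin is released, had 3 peaks in denervated 1 alone, with 403 bases. The type IV chains Col4a1 to Col4a6, which form the collagen network of basement membranes, had no peak in any list.

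Of 11 laminin chains, only the gamma chain Lamc1 carried peaks. It covered 1099 bases in innervated 1, 1348 in innervated 2 and 1150 in denervated 1, and had none in denervated 2. The 3 libraries with peaks lay close together, so the groups were not separated. Its region near the 3′ end, chr1:153220665-153226465, joined 3 blocks in both innervated libraries, and 75% of Lamc1 peaks were spliced, against 12.6% of peaks in other genes. Lama2, Lamb1 and Lamb2, the chains that join Lamc1 in the laminins of adult muscle, had no peak.

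Thrombospondins are matricellular proteins that act on cells rather than as structural parts. Thbs1, an activator of latent TGF-beta and inhibitor of angiogenesis, was called in every library, with 2 peaks in each and 450, 844, 746 and 795 covered bases. The groups overlapped. Its regions lay at opposite ends of the gene, chr2:118113217-118113514 near 9.60% of the span and chr2:118125150-118125844 near 89.2%. Thbs2 had 250 bases in innervated 1, none in innervated 2, and 401 and 300 in the denervated libraries. With the missing peak counted as 0 bases, both denervated values were higher (exact permutation p = 0.333). Its region chr17:14689829-14690128, the one seen in 3 libraries, also lay in the 5′ part, near 14.9% of the span. Thbs3 and Thbs4 had no peak.

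Adamts proteases had 4 genes with peaks of 19 annotated, and Adamts1, Adamts5 and Adamts15, which cleave aggregating proteoglycans, were called in all 4 libraries. Adamts5 had the most covered bases of the 39 genes, 2787 and 2835 in innervated 1 and 2 and 2836 and 3087 in denervated 1 and 2. Both denervated values were higher, but by 1 base between innervated 2 and denervated 1, at 1.05 times the innervated mean. Its regions chr16:85861836-85866670 and chr16:85887823-85900876 each held peaks split into blocks, and the latter lay at the 5′ end. An annotated long non-coding RNA, Gm46558, overlaps Adamts5 peaks. Adamts15 covered 750 and 749 bases in innervated 1 and 2 and 997 and 848 in denervated 1 and 2, at 1.23 times the innervated mean (exact permutation p = 0.333). As in Col19a1, it had 3 peaks in each innervated library and 1 longer peak in each denervated library. Adamts1 covered 899, 699, 699 and 649 bases, and its 2 peaks near the 5′ end were seen in innervated 1 alone. Adamts8 had 3 peaks in denervated 2 alone, with 549 bases.

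Integrin alpha chains were the family with the largest number of called genes after the collagens, 9 of 18. Itga3, Itga4, Itga5, Itga6 and Itga9 were called in all 4 libraries. Itga5, the fibronectin receptor chain, had the strongest peaks of the 39 genes by score, at percentiles 95.9 to 98.4 within the lists. It covered 993, 1042, 943 and 993 bases in a region at the 3′ end, chr15:103344336-103345976, and the groups overlapped. Itga6, a laminin receptor chain, covered 996 and 998 bases in innervated 1 and 2 and 748 and 897 in denervated 1 and 2. Both denervated values were lower, at 0.825 times the innervated mean (exact permutation p = 0.333). Itga9, which binds tenascin and osteopontin, covered 351 and 403 bases in innervated 1 and 2 and 751 and 851 in denervated 1 and 2. Both denervated values were higher, at 2.12 times the innervated mean (exact permutation p = 0.333). In the stronger 50% of each list Itga9 was denervated only, and in the weaker 50% it was innervated only. Its best peaks stood at percentiles 55.4 and 57.7 in denervated muscle and at 11.0 and 29.7 in innervated muscle. Itga3, also a laminin receptor chain, covered 299, 498, 348 and 696 bases, and Itga4, which pairs with Itgb1 on migrating cells, 502, 702, 201 and 652 bases. Both showed overlapping groups.

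Itga1, a collagen receptor chain, was innervated only. It covered 401 and 302 bases in innervated 1 and 2 and had no peak under its name in the denervated libraries. It had 1 region at each end of the gene, chr13:114959825-114960025 at the 3′ end and chr13:115101715-115101914 at the 5′ end, and both were innervated only. When peaks were given to genes by the overlap of gene spans in place of the name, the call was lost, because 7 peaks listed for Pelo, a gene nested in the Itga1 span, then counted for Itga1. The other collagen receptor chain with a peak, Itga11, covered 501 bases in innervated 1, none in innervated 2, and 451 in each denervated library. Itga8 covered 550, 401 and 201 bases in innervated 1, innervated 2 and denervated 1, and none in denervated 2. With the missing peak counted as 0 bases, both denervated values were lower (exact permutation p = 0.333). Itgav had 3 peaks with 650 bases in denervated 2 alone. Itga7, the laminin receptor chain typical of muscle fibres, carried no peak, and neither did the leukocyte chains Itgal, Itgam and Itgax.

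Of the beta chains, Itgb5, Itgb6 and Itgb8 carried peaks, and all of these are partners of Itgav. Itgb8, known for the release of TGF-beta from its latent form, was denervated only, with 351 bases in denervated 1 and 501 in denervated 2 and none in the innervated libraries. Both of its regions, chr12:119162903-119163349 and chr12:119170811-119171011, were denervated only, and the first was split into blocks in both libraries. Itgb6 covered 547, 646 and 497 bases in innervated 1, innervated 2 and denervated 1 and had no peak in denervated 2. With the missing peak counted as 0 bases, both denervated values were lower (exact permutation p = 0.333). Itgb5 was called in every library, with 349, 299, 349 and 399 bases in a region at the 3′ end, and the groups overlapped. Itgb1, the common partner of most alpha chains in muscle, and the leukocyte chain Itgb2 had no peak. Itgb1bp1, Itgb1bp2 and Itgb3bp, whose symbols match the pattern but which are not integrins, had none either.

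**Figure D2:**
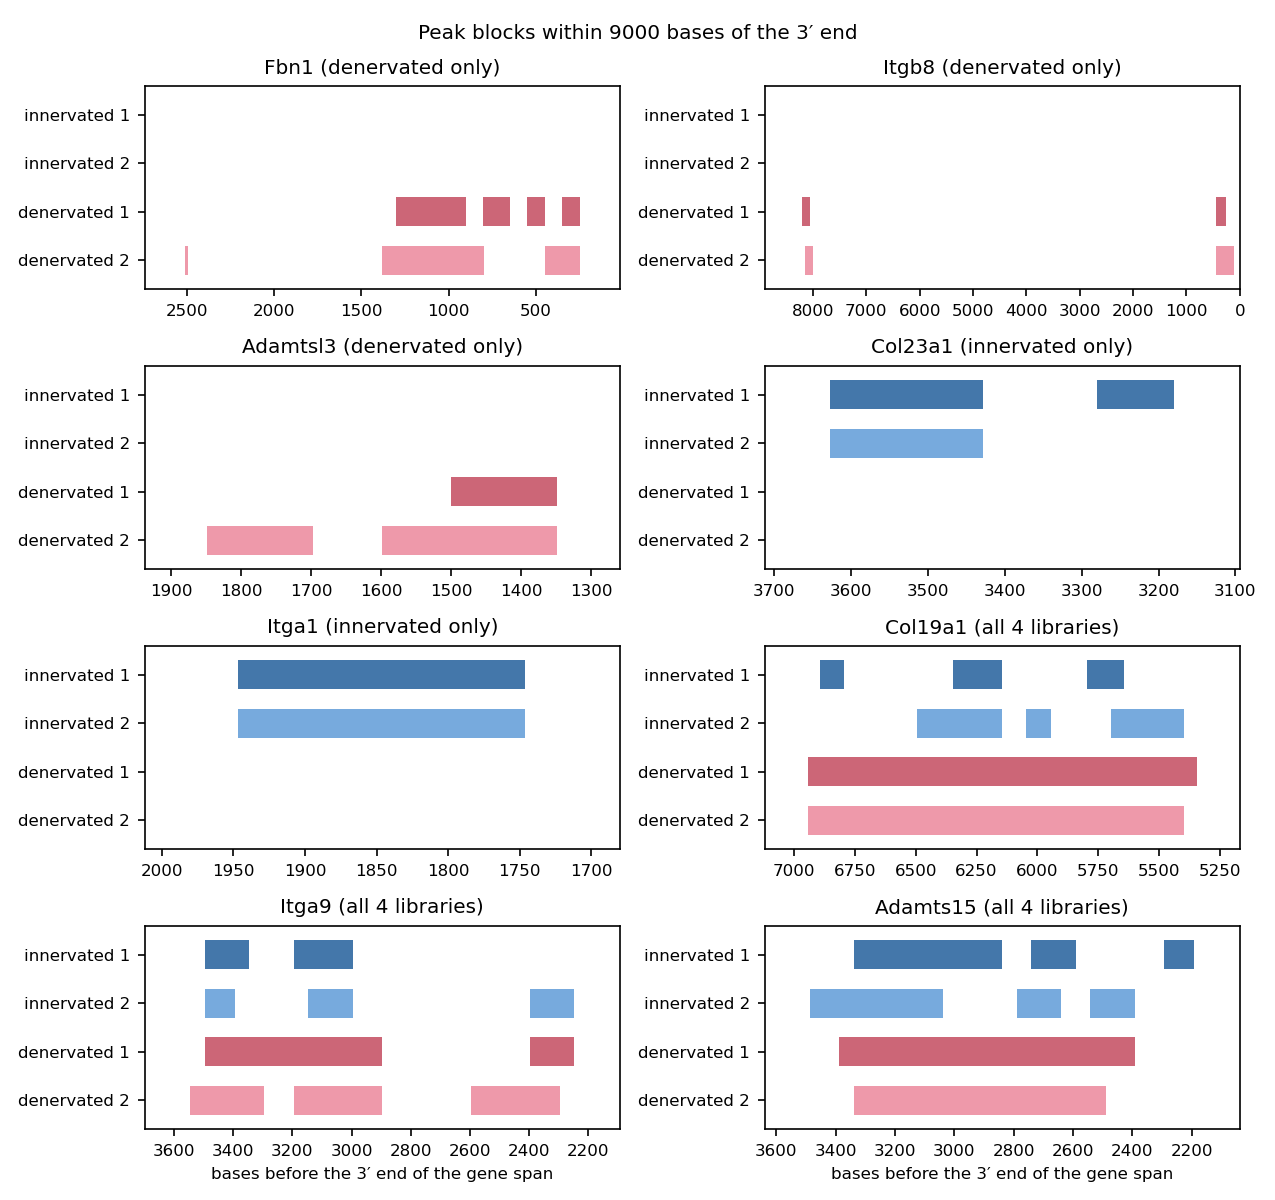
Peak blocks (bars) of 8 genes in each IP library, drawn by their distance in bases before the 3′ end of the gene span; peaks far from the 3′ end are not drawn. Fbn1, Itgb8 and Adamtsl3 show bars in the denervated libraries alone, Col23a1 and Itga1 in the innervated libraries alone, and Col19a1 and Adamts15 show 3 separate peaks in each innervated library where each denervated library has 1.

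Among the 18 genes called in all 4 libraries, covered bases were higher in both denervated than in both innervated libraries in 4, Col19a1, Itga9, Adamts15 and Adamts5 (22.2%, against 15.6% of the other genes called in all 4 libraries), and lower in 2, Col6a2 and Itga6 (11.1%, against 17.2%). These counts are near the background. In Col6a3, Thbs2, Itga8 and Itgb6 the groups were separated only with a missing peak counted as 0 bases. The share of such genes elsewhere was not counted, so they cannot be set against a background. The median ratio of denervated to innervated covered bases was 1.03 over the 18 genes, from 0.708 in Itga4 to 2.61 in Col19a1, and 1 over 2906 other genes.

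Overlapping peaks of the lists (1 base or more, strand by strand) were joined into regions. The 227 peaks made 80 regions, of which 25 were called in all 4 libraries (31.25%, against 34.6% of regions in other genes). Denervated only were 7 regions (8.75%, against 3.64%), 3 of Fbn1, 2 of Itgb8, and 1 each of Adamtsl3 and Col6a3. Innervated only were 3 regions (3.75%, against 4.20%), 2 of Itga1 and 1 of Col23a1. When overlap had to reach 50% of both peaks, 7 regions were denervated only and 6 innervated only, and in the stronger 50% of each list 5 and 0 were. Regions of the same gene share a transcript, so the 7 regions stand for 4 genes. Dropping innervated 1 gave 12 denervated-only regions, dropping innervated 2 gave 8, dropping denervated 1 gave 17 and dropping denervated 2 gave 25. The innervated-only regions were then 4, 8, 9 and 5. With 1 library fewer the condition is easier to meet. Shares of regions in other genes were not counted under these alternatives, so the counts cannot be set against a background.

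**Figure D3:**
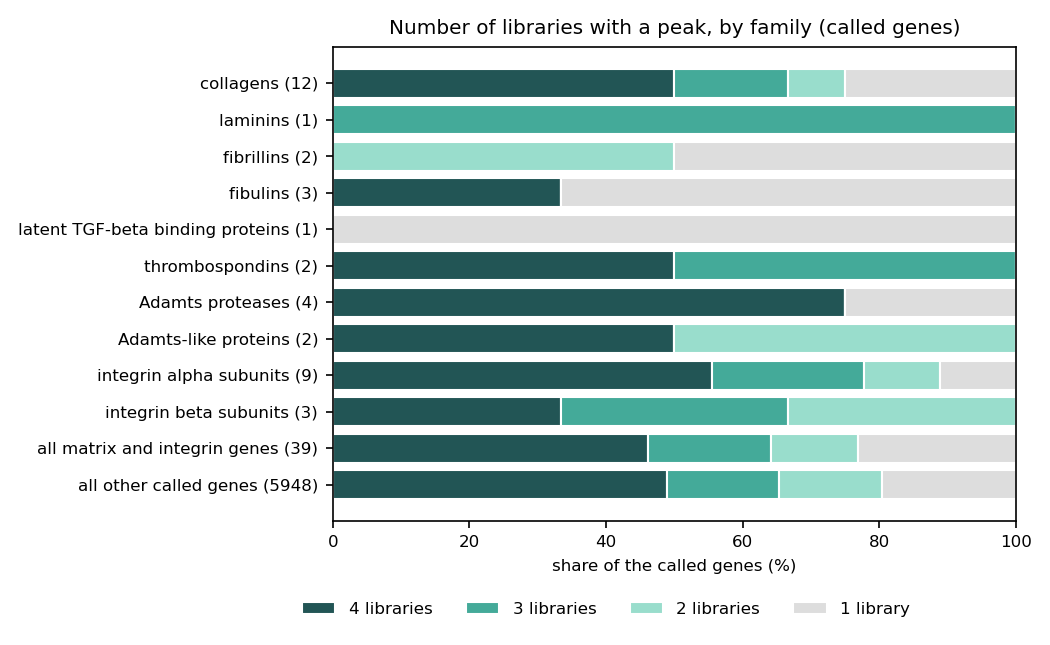
Share of the called genes of each family (rows, with the number of called genes) that carried a peak in 4, 3, 2 or 1 libraries. For the 39 genes together, 46.2% were called in 4 libraries and 23.1% in 1, against 48.9% and 19.6% of the other called genes.

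The number of peaks per gene was similar to that of other genes, and the spans were longer. The median gene span was 77689 bases, introns included, against 25119 for the other called genes. A called matrix or integrin gene had a median of 2 peaks per list that held it, against 1.67, and at most 4 on average, in Col6a3, Col8a1, Fbln2 and Fbn1, against a maximum of 23.25 elsewhere. Peaks per gene in a library ran from 2 to 2.11, against 2.13 to 2.25 in other genes. Of the 25 genes with spans of at least 44482 bases, 8 were called in all 4 libraries (32%, against 49.2% of other genes of such spans). Of the 14 genes with shorter spans, 10 were, namely 8 of 12 genes with spans from 14375 to 44470 bases and 2 of 2 with spans up to 14366 bases. Of the other genes in these span classes, 47.4% and 49.8% were. All 5 group-only genes were among the 25 with long spans, as were 69 of 202 denervated-only and 69 of 186 innervated-only genes elsewhere.

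Peak width, the sum of a peak's blocks, had a median of 297 bases, from 100 to 1641, against 250 bases in other genes. Per library the median widths were 249 and 299 bases in innervated 1 and 2 and 250.5 and 300 bases in denervated 1 and 2, so the groups overlapped (difference of 1.25 bases, exact permutation p = 0.667). The quartiles were 151 and 448 bases, against 150 and 447. Adamts proteases had the widest peaks, with a median of 449 bases, and fibrillins the narrowest, with 201. These medians rest largely on single genes. Adamts5 held 14 of the 31 Adamts protease peaks, and Fbn1 held 8 of the 9 fibrillin peaks. The Fbn2 peak had 450 bases. Spliced peaks made up 13.2% of the 227, against 12.6% elsewhere.

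Peaks lay nearer the 3′ end of the gene span, as a share of its length, than those of other genes. In the last 10% of the span lay 62.7% and 69.6% of peaks in innervated 1 and 2 and 59.1% and 64.3% in denervated 1 and 2, against 39.4% to 42.8% in other genes. In bases, over all spans, the median from a peak to the 3′ end was 2430 to 3096 bases in these genes and 2883 to 3225 bases in others, whose spans were shorter. The comparison depended on span. Among genes with spans of at least 44482 bases, 75.2% of matrix and integrin peaks and 55.9% of other peaks lay in the last 10%, and the median distance to the 3′ end was 3125 and 6466.5 bases. Among genes of 14375 to 44470 bases the shares were 43.75% and 43.0%, and the distances 2353 and 3161 bases. The median position per library was 97.0%, 97.6%, 95.8% and 96.3% of the span, lower in both denervated libraries by 1.23 percentage points on average (exact permutation p = 0.333). That direction turned in the stronger 50% of each list. In other genes the mean of the library medians was also lower, 84.6% in denervated against 85.6% in innervated libraries. The difference there was -0.98 percentage points (exact permutation p = 0.667). In the last 10% lay 94.4% of integrin alpha and 85.7% of integrin beta peaks, 72.1% of collagen peaks, but 9.68% of Adamts protease and 8.33% of thrombospondin peaks, of which 38.7% and 33.3% lay in the first 10%. The latter shares rest on single genes: Adamts5 held 10 of the Adamts peaks in the first 10%, Adamts1 and Adamts8 1 each and Adamts15 0, and all 4 of the thrombospondin peaks there were of Thbs1. Exon maps were not used here, so the share of exon sequence along the span is unknown.

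**Figure D4:**
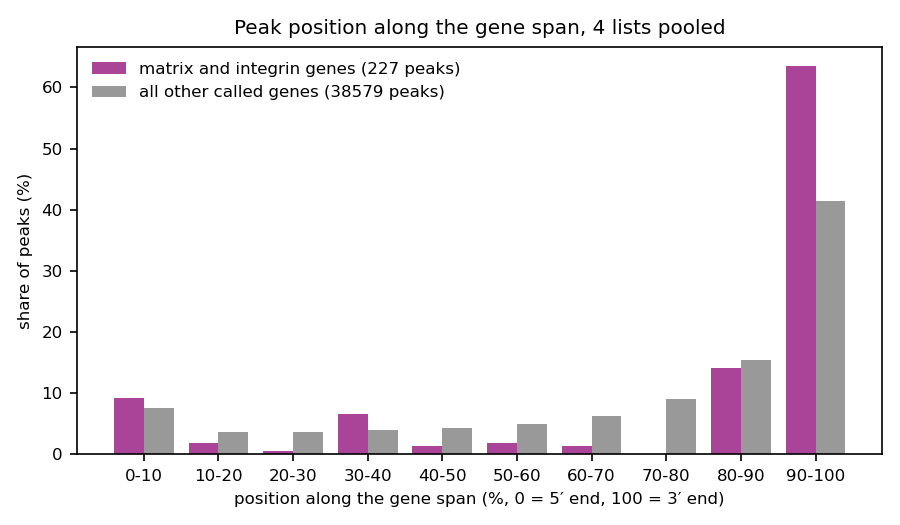
Share of peaks in each 10% step of the gene span, from the 5′ end (0%) to the 3′ end (100%), for the matrix and integrin genes and for all other called genes, with the 4 lists pooled. The last step holds 63.4% of the matrix and integrin peaks and 41.4% of the others, and the first step holds 9.25% and 7.56%.

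Other genes of matrix assembly, processing and adhesion were taken from a list of 84. Of these, 36 carried a peak (42.9%, against 26.4% of protein-coding genes outside the 39 genes' families), and of the 36, 22 were called in all 4 libraries (61.1%, against 48.9% of called genes), 0 were denervated only (0%, against 3.40%) and 2 were innervated only (5.56%, against 3.13%). The innervated-only genes were Tll1, a proteinase that processes procollagens, with 249 and 350 covered bases, and Colgalt2, a galactosyltransferase that modifies collagen, with 398 and 645. Called genes were 14 of 29 glycoproteins and crosslinking enzymes, such as the perlecan gene Hspg2 and Tnc, 8 of 19 collagen-processing genes, 4 of 16 proteases and inhibitors, and 10 of 20 adhesion partners of integrins, such as the talin gene Tln2 and the dystroglycan gene Dag1.

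Markers of cell types were searched for peaks, and a marker without a peak may still have been present. Of 9 muscle fibre markers, among them Acta1, Ckm and Ttn, 0 carried a peak, so the lists do not test the labelled tissue through these genes. Peaks were found in 5 of 7 fibroblast, 4 of 5 endothelial, 2 of 4 tendon, 3 of 5 Schwann cell, 2 of 3 satellite cell and 0 of 5 macrophage markers. The Schwann cell marker Ngfr was denervated only, with 694 and 1038 covered bases, in the same libraries as Fbn1, Itgb8 and Adamtsl3. Of the fibroblast markers, Pdgfra covered 751, 949, 800 and 700 bases and Pi16 500, 300, 600 and 749. Lum covered 0, 496, 447 and 644 bases, and Ly6a 144 bases in innervated 1 alone. Tcf4, counted among the 5 of 7 above, covered 150, 0, 0 and 452 bases. The muscle fibroblast protein called TCF4 is the product of another gene, so the Tcf4 values do not describe fibroblasts. Pi16 was higher in both denervated libraries, the groups overlapped in Pdgfra, Lum, Tcf4 and Ly6a, and Dcn and Dpp4 had no peak. The part of cell composition or transcript abundance in the group-only calls was not tested.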

How the data were processed

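The series holds 8 libraries of mouse gastrocnemius, an IP and an input library for each of 2 denervated and 2 innervated replicates. The deposited files are 4 peak lists, 1 per IP library against its own input, not pooled. The unit of their value column is a score, per the file headers, from 0 to 0.023. Its meaning, the peak caller and the threshold: not given in the sources used here. STAR 2.4.2a, ChIPseeker and mm10 stand in the submitters' processing notes. Small scores were read as strong, which is uncertain; they served only to order peaks within a list, as percentiles.

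Genes were taken by list name: 5725 of 5987 names were RefSeq symbols of GRCm38.p6, 249 older symbols, and 13 were unmatched. Peaks sharing 1 base of their blocks on a strand were linked into regions, a step tested on simulated data. Groups were tested with the two-sided exact permutation test, libraries being the units (Python 3.11.15, pandas 2.3.3). Families and lists were chosen with earlier results of these data known. By rule, named genes were all group-only genes and, per family, the 4 genes with most regions in all 4 libraries (ties by peaks, then symbol); values of the remaining members were added after they were seen. Sequence came only from the RefSeq start windows; protein lengths were not compared. Alternatives were score subsets, equal list lengths, other links, gene spans, each library left out, and replicate pairs.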

Additional observations from a re-analysis of the deposited data

How the results depend on the processing

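Because 2 libraries per group allow no permutation p below 0.333, the settings bear on directions and counts and not on tests. The stronger 50% of each list by score left 7 genes in all 4 libraries, with 0 genes and 0 regions innervated only, and the difference in median position turned to 0.0579 percentage points. The weaker 50% left 3 genes in all 4 libraries and 4 denervated-only regions. Both settings keep fewer peaks by construction. Reciprocal overlap of at least 50% gave 6 innervated-only regions. Genes taken by span gave 1 innervated-only gene, since Itga1 then counted the Pelo peaks. Equal numbers of peaks per list changed no direction and kept the counts of genes and regions within 1.5 times, while the difference in peaks fell to 4.5 and that in width rose to 25 bases. Removing names that are not matrix or integrin genes changed nothing, as none had a peak.

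Leaving out a library gave 3 to 8 denervated-only and 2 to 5 innervated-only genes, 8 to 25 denervated-only and 4 to 9 innervated-only regions, and 18 to 22 genes called in all remaining libraries. Fewer libraries make each call easier to meet, and the shares of other genes and regions were not counted in these settings. The difference in genes per library stayed between 2.5 and 7.5, and that in peaks between 2 and 15. The difference in median width ran from -23.75 without innervated 1 and -23.5 without denervated 2 to 26.25, so its sign has no hold, and that in median position from -1.54 to -0.93.

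With the replicate number as a block, the differences were the same by construction, 5 genes, 8.5 peaks, 1.25 bases and -1.23 percentage points, each with an exact sign-flip p of 0.5, the smallest that 2 pairs allow. The labels do not say that numbers mark an animal, so the numbers were not used as pairs in the main tests. The deviations of same-numbered libraries had a correlation of 0.02 in covered bases over 2924 genes. That value cannot show that pairs are absent, as innervated muscle came from the opposite leg. Without read depth, low-abundance transcripts cannot be told from unmethylated ones.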
